A study of Mus musculus with 46 samples.

Results

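Trimethylation of lysine 27 of histone H3 (H3K27me3) was described in visceral fat of mice given corticosterone (CORT) against mice given vehicle (VEH), both at 5 weeks. The members are all 7792 genomic sites of the authors' deposited H3K27me3 table for this contrast, taken as they stand, together with the peak lists of the 4 H3K27me3 libraries behind it, which belong to a series of 46 samples. The CORT group (2 libraries) is labelled as active Cushing's syndrome, the disease of glucocorticoid excess, and the VEH group (2 libraries) as its control; corticosterone is the main glucocorticoid of rodents. All 4 libraries came from visceral adipose tissue, used the same antibody and carried a Drosophila chromatin spike-in. Dose, strain, sex and age are not given in the sources used here, nor is it said whether the replicates were separate animals or pools, so any p-value measures only the spread between these libraries, which may be technical.

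H3K27me3 is written by Polycomb repressive complex 2, in which Ezh2 or Ezh1 carries the catalytic activity and Suz12 and Eed are core subunits. The mark is bound by the Cbx proteins of Polycomb repressive complex 1 and is removed by the demethylases Kdm6a and Kdm6b. It spreads over wide domains at silent genes of development, and it can lie beside H3K4me3, the mark of promoters, at genes that are silent but poised. H3K27ac, the acetylation of the same lysine, marks active promoters and enhancers and cannot share that lysine with H3K27me3. Because whole tissue was used, a changed share of cells that carry the mark and a changed level per cell cannot be told apart. The sites are given by their position in the mouse build mm9 and were not tied to genes here.

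Nearly every H3K27me3 site stood higher in CORT fat in the authors' deposited table. The level of a site is the log2 of the mean normalized reads over the libraries of a group, deposited as a group mean with no value per library and no SD. The difference, CORT minus VEH, had a median of 0.56 on the log2 scale, which is a 1.47-fold higher level in CORT, with quartiles of 0.35 and 0.75. It was above 0 at 7269 sites (93.3%), 0 at 21 sites and below 0 at 502 sites (6.4%). Its range was -1.14 to 2.09, and 738 sites stood at 1 or more against 3 sites at -1 or less. Measured from the median of the table, 3813 sites (48.9%) lay above it, 115 at it and 3864 (49.6%) below it. After this centring 49 sites were at 1 or more and 75 at -1 or less.

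A shift of this size was also present in the other tables of the same tissue, each over its own libraries. At 5 weeks the median difference was 0.61 over 23236 H3K4me3 sites and 0.48 over 39581 H3K27ac sites. The H3K27me3 table of 15 weeks, the time labelled as recovered, had a median of 0.65 over 5992 sites. The share of sites higher in CORT was 97.8% for H3K4me3, 90.6% for H3K27ac and 96.0% for H3K27me3 at 15 weeks, against 93.3% for H3K27me3 at 5 weeks. Whether the spike-in scaled these levels is not given in the sources used here, and the part of the scaling in the shared shift was not tested.

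Set against input, the sheared chromatin without immunoprecipitation, the groups had the same median. The authors deposited a table of each group against input, and 4869 of the 7792 sites overlap a site in both. The enrichment over input at these sites had a median of 2.13 in CORT (quartiles 1.86 and 2.40) and of 2.13 in VEH (quartiles 1.86 and 2.40), both on the log2 scale. Its difference, CORT minus VEH, had a median of 0.00 with quartiles of -0.30 and 0.31, and 49.9% of sites were above 0. At the same 4869 sites the raw difference of the levels had a median of 0.54 and was above 0 at 98.3%. These 2 tables have their own sites and were normalized separately, and each site took the row of each table that shared most bases with it. The 2 enrichments can therefore cover different stretches. At chr6:52205514-52221598 input stood at 7.20 in the CORT table and at 6.05 in the VEH table. So the enrichments are a description and no test of the groups. All 7792 sites overlap a site that passed an FDR (false discovery rate, the adjusted p) of 0.1 against input in at least 1 group, and 6125 overlap a site that passed 0.05. Whether the H3K27me3 table was built from sites past such a cut is not given in the sources used here. The full overlap is therefore no independent support for the sites.

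An FDR of 0.05 was passed by 1304 sites in the authors' deposited table, which is 16.7% of the 7792 sites tested, and all of them were higher in CORT. No site was called lower in CORT in the authors' deposited table, and at an unadjusted p below 0.05 the count was 2487 higher and 0 lower. The smallest FDR of any site lower in CORT was 0.281 in the authors' deposited table. Of the called sites, 1116 also lay above the table median, 29 at it and 159 below it. Called sites had a median difference of 0.72 (0.40 to 1.58), and the sites not called had 0.51. They were the wide and strong ones, with a median width of 4036 bases and a median level of 6.75, against 1326 bases and 4.81 for the sites not called. The narrowest called site spanned 1158 bases.

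**Figure D1:**
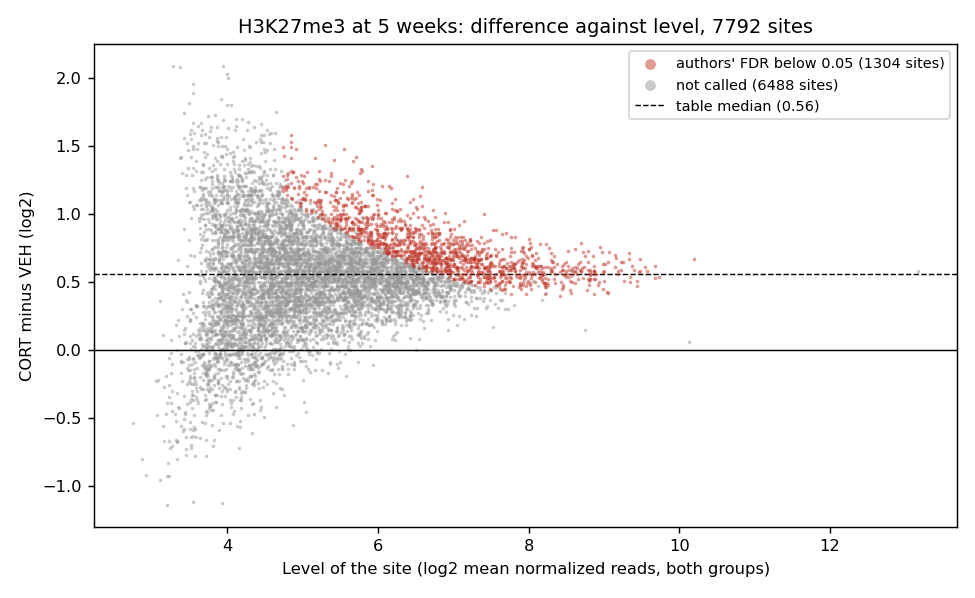
Difference between CORT and VEH (log2) against the level of each site (log2 mean normalized reads of both groups), 1 point per site; red points passed the authors' FDR of 0.05 and the dashed line is the table median of 0.56. The cloud narrows around the dashed line as the level rises, and all 1304 red points lie above 0. Sites below 0 are mostly at low levels, with none in the highest quartile of level (above 5.98).

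The deposited FDR was exactly 1 at 3023 sites (38.8%), all with a level of 5.63 or less. Over the other 4769 sites it matched a Benjamini-Hochberg adjustment of the deposited p-values to within 0.762%, as an adjustment over those sites alone would give. Of the sites at an FDR of 1 in the authors' deposited table, 323 had an unadjusted p below 0.05. The median difference was 0.49 over the 3023 sites at an FDR of 1, against 0.57 at the sites with an FDR below 1. Sites at an FDR of 1 could not be called, and they were narrow and weak. Their median width was 918 bases and their median level 4.21, against 2269 bases and 5.75 at the other sites. Called shares by width, level and peak support therefore follow this cut in part. Over the 4769 sites with an FDR below 1, 27.3% were called.

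Wide sites lay more tightly around the shift than narrow ones. The 7792 sites spanned 363 to 31310 bases (median 1541), and 17353 kb in all. Level and width moved together across sites (Pearson r = 0.979 between level and log2 width over 7792 sites, a description, since the level sums the reads over the width). In the narrowest quartile by width, 363 to 1011 bases, the median difference was 0.44 with quartiles of 0.11 and 0.83, and 82.3% of sites were higher in CORT. The second quartile had a median of 0.56 (0.30 to 0.81) and the third a median of 0.58 (0.40 to 0.76). The widest quartile, 2576 to 31310 bases, had a median of 0.58 with quartiles of 0.47 and 0.69, and 1946 of its 1947 sites were higher in CORT with none lower. The called share was 0% in the narrowest quartile, 1.49% in the second, 13% in the third and 52.4% in the widest. These shares are set in part by the sites with an FDR of exactly 1, which could not be called and had a median width of 918 bases. So the median differed by 0.14 between the narrowest and the widest quartile, while the span between the quartiles of the difference shrank to 0.21 in the widest quartile against 0.72 in the narrowest.

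The 132 sites of 10 kb or more are the broad domains of the table and hold 11.1% of its bases. Every one of them was called in the authors' deposited table, had a peak in all 4 libraries and had a counterpart in the 15 week table. Their difference ran close to the table median (median 0.58, quartiles 0.52 and 0.62, range 0.40 to 0.79), with 76 above it and 46 below it. At 15 weeks the same sites differed by a median of 0.68 (0.43 to 0.86), and 127 of them passed the authors' FDR of 0.05 there. An H3K4me3 site overlapped 107 of the 132 (81.1%), and an H3K27ac site 7.6%.

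The 10 sites with the smallest p in the authors' deposited table were all broad, 14301 to 31310 bases, with levels of 8.70 to 10.20 and differences of 0.67 to 0.79. Each had a peak in all 4 libraries and a called counterpart at 15 weeks, where the difference was 0.58 to 0.83. The smallest p belonged to chr6:52205514-52221598, with a level of 9.27 in CORT and 8.51 in VEH, a difference of 0.76 and an FDR of 1.23e-05 in the authors' deposited table. Its best peak score was 1692 and 505 in CORT replicates 1 and 2, against 906 and 315 in VEH replicates 1 and 2. The score is that of the authors' peak caller. Replicate 1 scored above replicate 2 in each group, and the groups overlap. Next to it lies the widest site of the table, chr6:52173810-52205119 (31310 bases), with a level of 10.49 in CORT and 9.82 in VEH and a difference of 0.67. There the peak scores were 1107 and 778 in CORT replicates 1 and 2, against 1524 and 1481 in VEH replicates 1 and 2, so both VEH libraries scored above both CORT libraries while the level was higher in CORT. Another of the 10, chr6:52255051-52274476 (19426 bases), lies close by and had a level of 9.63 in CORT and 8.96 in VEH.

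The other 7 of these sites lie on chromosomes 2, 5, 6, 12, 16 and 17. The largest difference among them was 0.79 at chr12:74135303-74149770, with a level of 9.04 in CORT and 8.25 in VEH and an FDR of 1.23e-05 in the authors' deposited table. Further examples were chr5:75466100-75483481 (9.38 in CORT, 8.66 in VEH), chr2:73101322-73120620 (9.64 in CORT, 8.93 in VEH) and chr17:26970617-26985912 (9.29 in CORT, 8.57 in VEH). Over input, these 3 sites stood at 2.69, 2.62 and 2.73 in CORT, against 2.41, 2.72 and 2.62 in VEH. An H3K4me3 site overlapped 8 of the 10.

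The sites of highest level were of another kind at the top. The highest, chr17:39979440-39986264 (6825 bases), had a level of 13.43 in CORT and 12.85 in VEH, and its difference of 0.58 had an FDR of 0.0986 in the authors' deposited table. Input was also high there, at 11.97 in the CORT table and 12.02 in the VEH table, and the enrichment over input was 1.77 in CORT and 1.65 in VEH. The site ranked 3 by level, chr6:113024726-113027393 (2668 bases), had a level of 10.16 in CORT and 10.10 in VEH, a difference of 0.06 and an FDR of 0.909 in the authors' deposited table. Among the 4869 sites with a counterpart in both input tables it was the most enriched, at 5.84 in CORT and 6.56 in VEH, and it overlapped both an H3K4me3 and an H3K27ac site. Its score was 3100 in each of the 4 libraries, which is the highest score of 3 of the 4 lists (3205 in CORT replicate 1), so equal scores there do not show an equal signal. Its H3K4me3 difference was 0.62, close to the median of that mark. At 15 weeks its H3K27me3 difference was 0.70, with an FDR of 0.394 in the authors' deposited table of that time. The other 8 of the 10 highest were broad domains of 10 kb or more, all called, with differences of 0.53 to 0.67.

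The largest differences of either sign sat on weak, narrow sites. The 5 largest were 2 to 2.09, at sites of 700 to 1018 bases with levels of 3.28 to 4.01, and all had an FDR of 1 in the authors' deposited table. For 4 of the 5 the only peak was that of CORT replicate 1. At chr3:93249825-93250615, the exception, both CORT libraries had a peak (scores 119 and 54.7) and neither VEH library did, and the level was 4.63 in CORT and 2.54 in VEH. The 10 sites lower in CORT with the smallest p were 684 to 1412 bases wide with levels of 3.20 to 4.87. Of these, 9 had a peak in a single library, which was VEH replicate 1 for 7 of them, and 9 had an FDR of 1 in the authors' deposited table. The lowest difference was -1.14 at chr17:29324013-29324696, with a level of 2.52 in CORT and 3.66 in VEH, or 5.74 and 12.6 normalized reads.

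A called site with a centred difference of at least 1 occurred once, at chr2:152222120-152223878 (named after its value was seen). Its level was 5.44 in CORT and 3.86 in VEH, a difference of 1.58 with an FDR of 0.00614 in the authors' deposited table. CORT replicate 1 alone had a peak there, with a score of 180. It overlapped an H3K4me3 site with a level of 9.13 and a difference of 0.64.

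The peak lists, which unlike the levels are given per library, did not separate the groups. CORT replicates 1 and 2 had 11090 and 4430 peaks, against 8631 and 5914 peaks in VEH replicates 1 and 2. The peaks covered 18.66 and 5.48 Mb in CORT, against 12.28 and 7.87 Mb in VEH. For both measures CORT replicate 1 was the highest of the 4 libraries and CORT replicate 2 the lowest, so the CORT pair encloses the VEH pair. The means were 7760 ± 4709 peaks in CORT and 7272 ± 1921 peaks in VEH (SD, n = 2 each), a ratio of 1.07, and 12.07 ± 9.32 Mb in CORT and 10.07 ± 3.12 Mb in VEH, a ratio of 1.20. The two-sided exact permutation p was 1 for both, and 2 against 2 libraries cannot go below an exact p of 0.333. Without CORT replicate 1 the ratio of peak numbers was 0.61, and without CORT replicate 2 it was 1.52. Covered length went the same way, at 0.54 without CORT replicate 1 and 1.85 without CORT replicate 2.

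Peaks of 5 kb or more show the same order, with 420 and 21 in CORT replicates 1 and 2, against 152 and 47 in VEH replicates 1 and 2. The shorter lists lay more fully inside the table. Of the peaks, 64.1% and 91.3% overlapped a site in CORT replicates 1 and 2, against 78.8% and 88.8% in VEH replicates 1 and 2. Peaks outside the sites were weak, with median scores of 62.4 and 54.9 in CORT, against 57.8 and 56.3 in VEH, near the lowest deposited score of 50. The read depth of the ChIP libraries is not given in the sources used here, and its part in these lists was not tested.

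**Figure D2:**
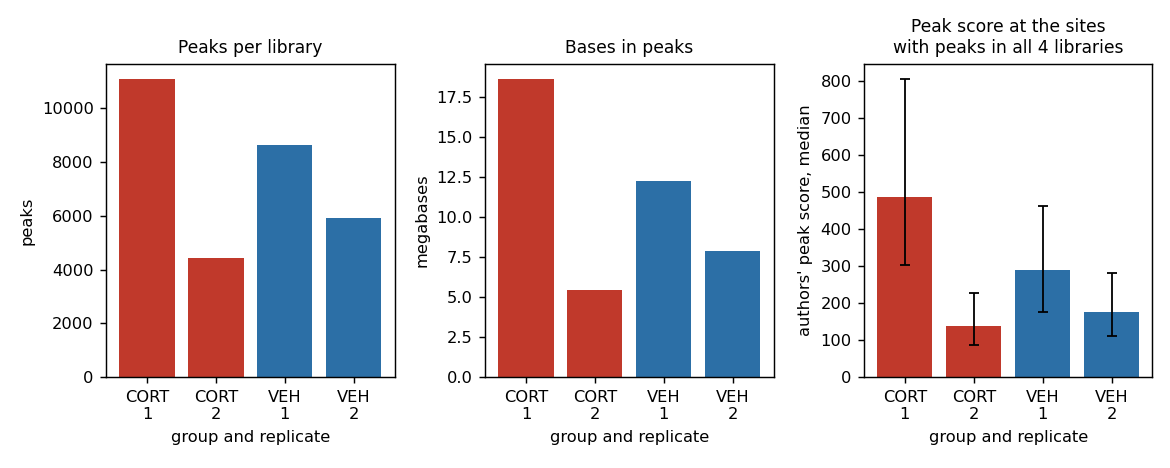
Peaks per library, megabases covered by peaks, and the median peak score (bars, with quartiles as error bars) at the 2122 sites with a peak in all 4 libraries; red bars are CORT replicates 1 and 2 and blue bars VEH replicates 1 and 2. In each panel CORT replicate 1 is the highest bar and CORT replicate 2 the lowest, with both VEH libraries between them.

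Support by peaks sorted the sites by strength. A peak overlapped (by at least 1 base) 82.9% and 37.2% of the sites in CORT replicates 1 and 2, against 69.0% and 49.6% in VEH replicates 1 and 2, and every site had a peak in at least 1 of the 4. All 4 libraries had a peak at 2122 sites (27.2%), whose median width was 3327 bases, median level 6.49 and median difference 0.57, with 43.3% called. Peaks of 3 libraries supported 1349 sites, of 2 libraries 1742 sites and of a single library 2579 sites (33.1%), the last with a median width of 944 bases, a level of 4.23 and 4.07% called. At the 2122 sites the median peak score was 487 and 139 in CORT replicates 1 and 2, against 289 and 178 in VEH replicates 1 and 2. CORT replicate 1 had the highest score of the 4 libraries at 84.8% of these sites and CORT replicate 2 at 0.4%. The peaks covered a median of 97.5% and 48.1% of such a site in CORT replicates 1 and 2, against 77.5% and 59.6% in VEH replicates 1 and 2. A broad domain of 10 kb or more was called as a median of 2 separate peaks in CORT replicate 1 and 5 in CORT replicate 2, against 4 in VEH replicate 1 and 5 in VEH replicate 2.

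The difference of the levels followed which libraries had a peak, as it must in part, since peaks and levels come from the same reads. The 1752 sites with peaks in CORT libraries only had a median difference of 0.88, the 1172 sites with peaks in VEH libraries only had 0.09, and the 4868 sites with peaks in both groups had 0.54. The CORT-only sites held 154 called sites (8.79%), the VEH-only sites none, and the sites of both groups 1150 (23.6%). Of the CORT-only sites, 1493 rested on CORT replicate 1 alone (median difference 0.87), 87 on CORT replicate 2 alone (1.01) and 172 on both (a median difference of 1, with 28.5% called). Even the sites with peaks in VEH libraries only were more often higher in CORT (733 sites) than lower (425 sites) by the raw difference, while 1117 of them (95.3%) lay below the table median. Where CORT replicate 1 and both VEH libraries had a peak and CORT replicate 2 did not, the median difference was 0.40 over 892 sites. Where both CORT libraries and VEH replicate 1 had a peak and VEH replicate 2 did not, it was 0.72 over 349 sites.

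**Figure D3:**
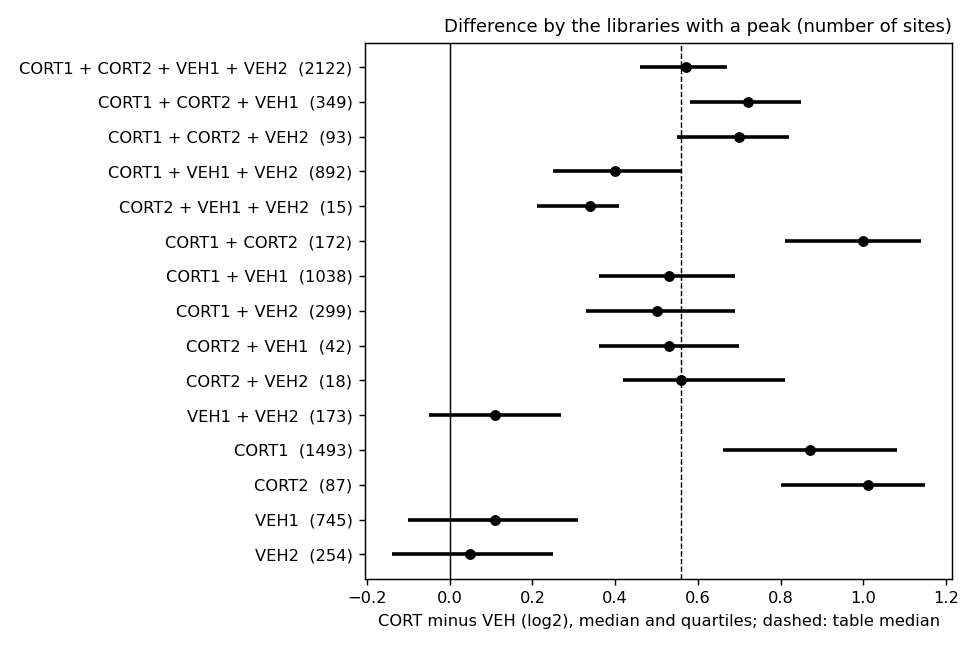
Median (points) and quartiles (lines) of the difference between CORT and VEH (log2) for each combination of libraries with a peak at the site, with the number of sites in parentheses; CORT1 to VEH2 are the libraries by group and replicate and the dashed line is the table median of 0.56. Sites with peaks in CORT libraries only have medians of 0.87 to 1.01, those with peaks in VEH libraries only have medians of 0.05 to 0.11, and sites of all 4 libraries sit at 0.57.

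Among the 2122 sites with a peak in all 4 libraries, 2119 were higher in CORT and 3 were lower (these 3 are named after their values were seen). At chr2:33570235-33572140 the level was 5.48 in CORT and 5.67 in VEH, a difference of -0.19 with an FDR of 0.595 in the authors' deposited table. The others were chr7:139157420-139159710 (5.88 in CORT, 5.99 in VEH) and chr7:64763987-64765943 (5.68 in CORT, 5.77 in VEH). None of the 3 was called, and at 15 weeks their differences were 0.18, 0.34 and 0.19.

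The chromosomes shared the shift. Sites lay on all 19 autosomes and on the X, and none of the 4 libraries had a peak on the Y. The median difference per autosome ran between 0.52 on chromosome 5 and 0.63 on chromosome 16, the share of sites higher in CORT between 90.6% and 96.2%, and the called share between 12.9% on chromosome 4 and 19.9% on chromosome 19. Median widths of 1390 to 1691 bases differed little between autosomes. Chromosomes 2, 4 and 11 held the most sites (768, 747 and 747). Per 100 H3K4me3 sites, a measure of how many promoters a chromosome carries, there were 49.1 H3K27me3 sites on chromosome 4 and 40.9 on chromosome 2, against 21.9 on chromosome 16 and 34.3 over all autosomes.

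The X stood apart in number and not in difference. It carried 32 sites, 5.6 per 100 H3K4me3 sites, with a median level of 4.37 and a median width of 1178 bases. The median difference there was 0.55, 29 of the 32 sites were higher in CORT, and none was called in the authors' deposited table. Peaks on the X numbered 40 and 5 in CORT replicates 1 and 2, against 24 and 13 in VEH replicates 1 and 2. An H3K4me3 site overlapped 68.8% of the X sites, against 39.7% of all sites.

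**Figure D4:**
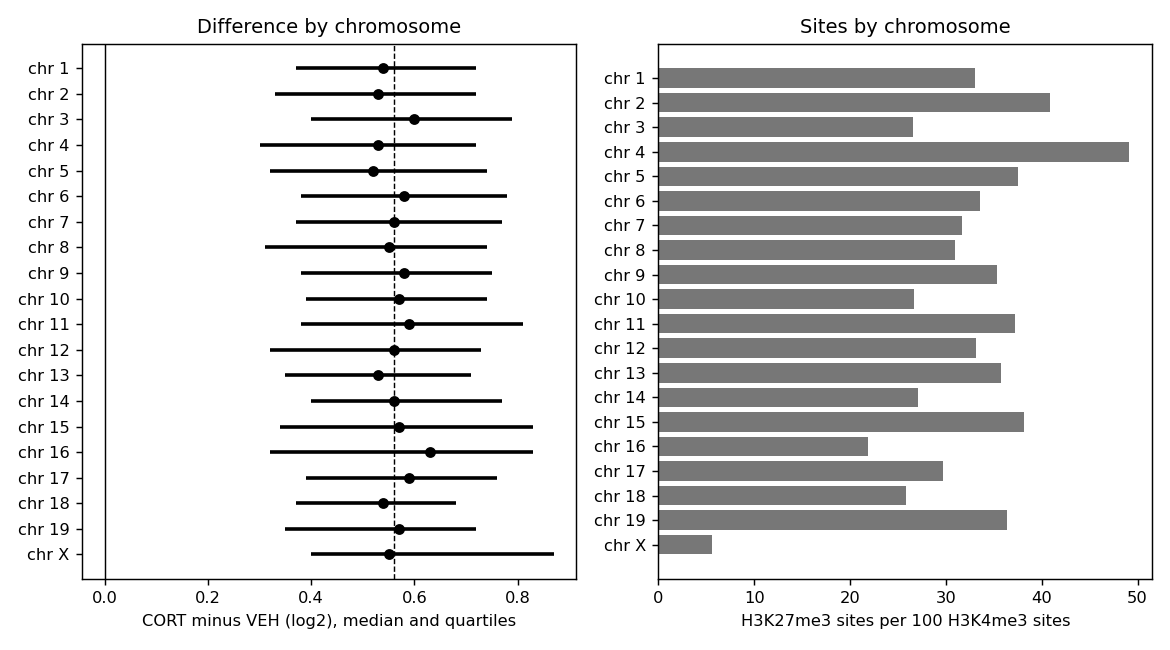
Left, median (points) and quartiles (lines) of the difference between CORT and VEH (log2) per chromosome, with the table median dashed; right, H3K27me3 sites per 100 H3K4me3 sites of the 5 week table. Chromosome medians stay between 0.52 and 0.63, while the number of sites per 100 H3K4me3 sites is 49.1 on chromosome 4 and 5.6 on the X.

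Sites clustered along the chromosomes. With gaps of at most 10 kb joined (a rule added after the data were seen), 626 runs of 3 or more sites held 2929 sites (37.6%), and 3245 sites stood alone. Sites in runs had a median difference of 0.55 and 19.7% were called, against 0.57 and 14.9% at the other sites. Fewer of the sites in runs overlapped an H3K4me3 site, 27.2% against 47.3% of the other sites. The run with the most marked bases, chr15:102729081-102867353, held 20 sites over 138.3 kb, of which 98.0 kb lay in sites. Its differences ran between -0.53 and 1.12 (median 0.62), 13 of its sites were called, and 10 overlapped H3K4me3. The run with the most sites, chr2:164921233-165095173, held 40 over 173.9 kb with a lower median of 0.38, and 3 of its sites were called.

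Some further runs with many marked bases are given as examples, chosen after their values were seen. The run chr6:52161613-52243904, which holds the widest site, had 9 sites over 82.3 kb, all with differences of 0.64 to 1.18 (median 0.76). The run chr2:74480373-74538645 had 7 sites with 96.9% of its 58.3 kb inside them and differences of 0.57 to 0.88. Differences in the neighbouring runs chr11:95982408-96079572 and chr11:96095648-96165781 spread wider, -0.19 to 1.55 (median 0.61, 12 sites) and 0.02 to 1.20 (median 0.65, 15 sites). In the chromosome 6 and chromosome 2 runs every site was therefore higher in CORT, and in the first of the chromosome 11 runs at least 1 site was lower.

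The other marks overlapped many of the sites. An H3K4me3 site of the 5 week table overlapped 3096 sites (39.7%) and an H3K27ac site 928 sites (11.9%). The share with H3K4me3 grew with level, 15.9%, 29.9%, 47.8% and 65.6% over the quartiles of level, while the share with H3K27ac did not (8.7%, 14.1%, 14.8% and 10%). Sites with H3K4me3 only (2221) had a median width of 2478 bases and a median H3K27me3 difference of 0.60, and 33.7% were called. The 875 sites with H3K4me3 and H3K27ac were narrower (1679 bases), with a median difference of 0.71, 24.6% called. At the 4643 sites with neither mark the median difference was 0.50 and 7.22% were called, over a median width of 1229 bases. The difference between these classes is given without a test, as sites are not replicates and the classes differ in width and level.

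At the 3096 sites the H3K4me3 level itself differed by a median of 0.48, which is 0.13 below the median of all H3K4me3 sites. Of these, 1008 (32.6%) were called in the authors' deposited H3K4me3 table, all higher in CORT, where 51.9% of all H3K4me3 sites were called in either direction. The share pools unlike classes. With H3K27ac as well, 501 of 875 sites were called for H3K4me3 (H3K4me3 level 7.94). With H3K4me3 only, 507 of 2221 were (level 6.30). At the 928 sites with H3K27ac, that mark differed by a median of 0.43, and 161 (17.3%) were called in the authors' deposited H3K27ac table, 4 of them lower, where 17.4% of all H3K27ac sites were called in either direction. The shares at the H3K27me3 sites count H3K27me3 sites, each with the site of the other mark that shares most bases. A site of the other mark can so count more than once, unlike in the shares over all its sites. Of the 1304 called H3K27me3 sites, 963 (73.8%) overlapped an H3K4me3 site, and 303 of those (31.5%) were called for H3K4me3 as well. At the overlapping sites not called for H3K27me3 the count was 705 of 2133 (33.1%), so the called sites held no larger share. Across sites, the H3K27me3 difference had a Pearson r of -0.03 and a Spearman rho of -0.02 with the H3K4me3 difference (3096 sites), and an r of -0.32 and a rho of -0.34 with the H3K27ac difference (928 sites), as a description of sites that share libraries.

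**Figure D5:**
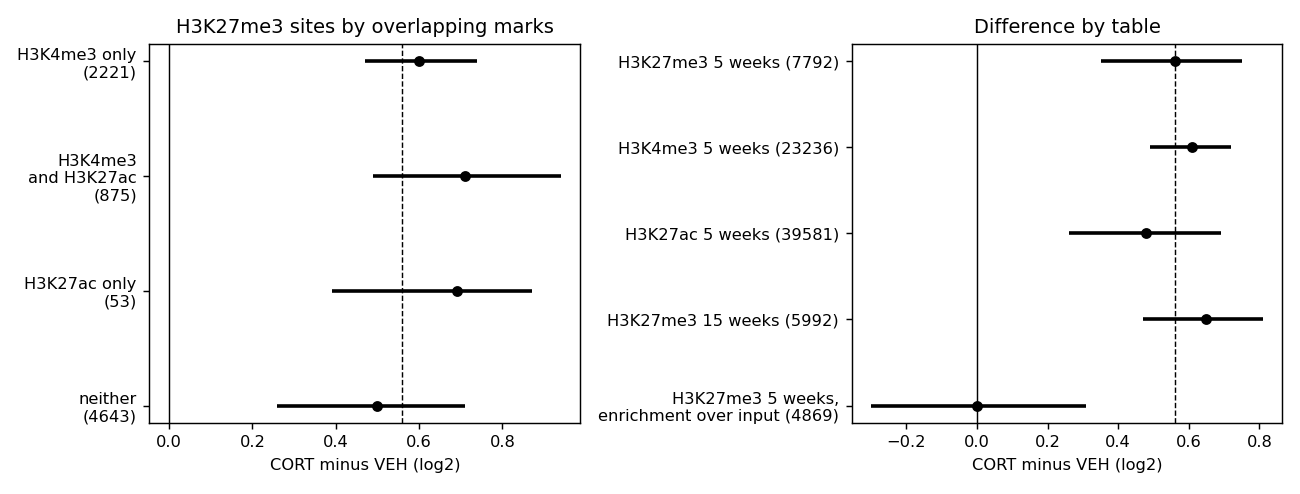
Median (points) and quartiles (lines) of the difference between CORT and VEH (log2); left, H3K27me3 sites by the 5 week marks that overlap them (number of sites in parentheses), and right, all sites of each table and the enrichment of H3K27me3 over input. The tables of the 3 marks all have medians above 0 (0.48 to 0.65), whereas the enrichment over input, from separate tables with their own sites, has a median of 0.00.

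Most of the sites were found again at 15 weeks, in other libraries. A site of the 15 week table overlapped 4778 of the 7792 (61.3%), a share of 25.8% in the narrowest width quartile and 97.5% in the widest. The 15 week difference at these sites had a median of 0.65, equal to that of its own table, and 98.2% were higher in CORT. Across the 4778 sites the differences of the 2 times had a Pearson r of 0.29 and a Spearman rho of 0.25, a description over sites that share libraries within each time. Of the 1304 sites called at 5 weeks in the authors' deposited table, 1196 (91.7%) had a counterpart, and 578 of those (48.3%) were called at 15 weeks too. Among the sites not called at 5 weeks, 460 of 3582 (12.8%) had a called counterpart, and 15.9% of all sites of 15 weeks were called higher in CORT. Here too a site of 15 weeks can be the counterpart of more than 1 site of 5 weeks. The sites called at 5 weeks were also wider and stronger than those not called, and the part of this in the shares was not tested. By peaks, 99.7% of the sites with a peak in all 4 libraries at 5 weeks had one in at least 1 of the 4 libraries of 15 weeks, against 48.2% of the sites with a single library.

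RNA of the genes that write, read and erase the mark was measured in 5 CORT and 5 VEH libraries of 5 weeks, as FPKM, the fragments per kilobase of a gene after scaling for depth. Of 31 Polycomb and H3K27 demethylase genes, all 31 passed the filter on low values, 18 fell and 1 rose (limma on log2(FPKM + 1), adjusted p below 0.05), where 21.5% of the 15601 genes tested fell and 22.3% rose. The median log2 fold change was -0.35 over the 31 genes and 0.01 over all genes. Libraries with transcripts of other tissues were among the 10: Alb, the albumin of liver, stood at 16.8 to 2095 FPKM in CORT and 7.61 to 22.4 FPKM in VEH, and Crisp1, of the epididymis, at 0.513 to 1430 FPKM in CORT and 0.0595 to 649 FPKM in VEH. Without the 7 libraries of the fit with such transcripts, 13 of 30 genes fell and 0 rose, where 13.6% of the 14703 genes tested in that fit fell and 15.9% rose. The 7 were CORT replicates 2, 3 and 4 and VEH replicate 3 of 5 weeks, and the rest were of 15 weeks. Only CORT replicates 1 and 5 of 5 weeks remained. A call lost in that fit cannot be told apart from the loss of libraries. Prm2, of the testis, stood at 0.12 to 184 FPKM in CORT and 0 to 0.536 FPKM in VEH, and Acta1, the actin of skeletal muscle, at 34.8 to 56.6 FPKM in CORT and 8.31 to 33.1 FPKM in VEH, with no overlap. Adipoq and Plin1, the adipocyte markers given here, did not move together. Adipoq, the hormone of adipocytes, stood at 1641 to 2452 FPKM in CORT and 2105 to 3814 FPKM in VEH. Plin1, a coat protein of the lipid droplet, stood at 345 to 490 FPKM in CORT and 200 to 297 FPKM in VEH. Each of the other tissues is shown by a single gene, and the further markers planned for these tissues are not given. The part of these shifts in the Polycomb values was not tested beyond leaving out the 7 libraries.

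Among the writers, Suz12 stood at 12.7, 12.8, 12.3, 12.1 and 12.4 FPKM in CORT and at 21.8, 22, 18.9, 18.3 and 24.1 FPKM in VEH (difference of -0.70 on the log2 scale, SE 0.10, limma adjusted p = 3.2e-05). All 5 CORT values lie below all 5 VEH values. Ezh2 stood at 4.23, 5.18, 4.71, 5.16 and 4.11 FPKM in CORT and at 5.94, 6.34, 4.72, 4.82 and 5.54 FPKM in VEH, and the groups overlap (-0.19, SE 0.10, limma adjusted p = 0.156). Eed averaged 13.7 ± 1.22 FPKM in CORT and 14.6 ± 1.63 FPKM in VEH (SD, n = 5 each; limma adjusted p = 0.519). Ezh1 fell (-0.32, SE 0.11, limma adjusted p = 0.0216), a call lost without the 7 libraries at the same fold change (-0.32, limma adjusted p = 0.128). Jarid2, which helps recruit the complex, averaged 5.63 ± 0.28 FPKM in CORT and 9.28 ± 1.19 FPKM in VEH (SD, n = 5 each) and fell (-0.63, SE 0.09).

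Among the readers, Cbx7 had the largest fall of the list, with 6.1, 4.07, 5.88, 3.95 and 3.76 FPKM in CORT and 10.5, 13.7, 12.1, 14.6 and 11.8 FPKM in VEH (-1.25, SE 0.12, limma adjusted p = 5.15e-07). The groups do not overlap. Cbx8 was the 1 gene that rose, averaging 3.57 ± 0.411 FPKM in CORT and 2.36 ± 0.162 FPKM in VEH (SD, n = 5 each), and its call was lost without the 7 libraries at the same log2 fold change (0.44 in both fits, limma adjusted p = 0.0648). Of the erasers, Kdm6a fell, with 8.21, 7.76, 8.3, 8.59 and 8.77 FPKM in CORT and 12.2, 12.8, 11.3, 12 and 13.4 FPKM in VEH (-0.51, SE 0.10, limma adjusted p = 0.000301). Kdm6b fell on average (-0.56, SE 0.21, limma adjusted p = 0.0388), but its groups overlap. Its call was lost without the 7 libraries (limma adjusted p = 0.352), a fit that kept CORT replicates 1 and 5. The overlap came from CORT replicate 1, at 5.08 FPKM. The other CORT libraries stood at 1.55 to 2.8 FPKM, and VEH at 3.04 to 5.39 FPKM. Without CORT replicate 1 the fall was -0.75 (limma adjusted p = 0.00277). Leaving out CORT replicate 3 instead lost the call (-0.44, limma adjusted p = 0.106), as did several other single libraries.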

How the data were processed

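The authors deposited, per the file headers, 1 table per mark and contrast with log2 mean normalized reads per site and group, a log2 fold, and a p-value and FDR per site, plus peak lists with a score per peak and a gene table of FPKM. Per the submitters' processing notes, Bowtie, TopHat, DiffBind and DESeq2 were used with the builds mm9 and dm3, without a role for each file. How the ChIP levels were scaled is not given in the sources used here. The members and lists were chosen with earlier results of these data known.

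From these files the difference of the 2 group levels was computed per site, raw and centred on the table median; it matched the deposited fold to within 0.01. Overlaps (at least 1 base) used bedtools 2.31.1. Sites were named by rule: the 10 higher and 10 lower in CORT with the smallest p, the 10 of highest level, the 5 widest, and the 5 with the largest and 5 with the smallest difference. RNA was tested with limma 3.58.1 in R 4.3.3 (trend, 4 group means over 20 libraries, genes reaching 0.5 FPKM in 5 or more libraries, pseudocount 1, two-sided, Benjamini-Hochberg over all genes), checked on simulated data. Fold changes of genes with low FPKM are understated by the added 1. A test of RNA at the genes under the sites was planned; since sites were not tied to genes here, the Polycomb gene list took its place.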

Additional observations from a re-analysis of the deposited data

Results flagged for a closer look

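In 5 of the 62 groups of 5 libraries looked at (31 genes in CORT and in VEH at 5 weeks), 1 library stood far from the other 4; chance alone flags about 1 group in 20. Pcgf2 stood at 1.95 FPKM in CORT replicate 1, against 0.723 to 0.964 FPKM in the other CORT libraries. Cbx6 stood at 7.35 FPKM in CORT replicate 1, against 4.35 to 5 FPKM in the other CORT libraries, and at 9.21 FPKM in VEH replicate 4, against 6.71 to 7.22 FPKM in the other VEH libraries. Phc1 stood at 5 FPKM in VEH replicate 5, against 4.34 to 4.5 FPKM in the other VEH libraries. Phc2 stood at 9.78 FPKM in VEH replicate 1, against 11.3 to 11.9 FPKM in the others.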

How the results depend on the processing

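The share of sites higher in CORT was 93.3%, and 93.3% on autosomes only. It was 99.3% at sites with a level at or above the median, 98.3% at sites with a peak in each group, and 49.9% for the enrichment over input (added after the data were seen). After centring it was 48.9%, a share that centring on the median of the table sets in advance, so it is no check. The authors' deposited table held 1304 called sites, against 524 at an FDR below 0.01, 2027 at an FDR below 0.1 and 1 when a centred difference of at least 1 was also asked; adjusting over all 7792 sites gave 1021 and asking for a difference above the median gave 1116 (both added after the data were seen). Sites with a peak in all 4 libraries made up 27.2%, against 9.6% where peaks had to cover 50% of the site and 16.1% with scores of at least 100, and leaving out 1 library gave 27.4% to 38.7%. The ratio of CORT to VEH was 0.61 to 1.52 for peak number and 0.54 to 1.85 for covered length when 1 library was left out (added), and 1.11 and 1.27 with scores of at least 100. The difference in median between the widest and the narrowest class was 0.14, against 0.05 with classes at 2, 5 and 10 kb. Autosome medians spanned 0.11, against 0.09 at sites with a level at or above the median. Requiring 50% of the site to be covered (added) lowered the overlap to 26.9% for H3K4me3, 9.1% for H3K27ac and 55.5% for H3K27me3 at 15 weeks. Runs of 3 or more sites numbered 626, against 545 with gaps of at most 5 kb. Where these values moved the cause was not tested.

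Of the Polycomb genes 19 were called, 16 to 19 when 1 library of 5 weeks was left out, and 13 to 20 over the other alternatives. The refits were followed for 21 genes, which were the 19 called ones with Ezh2 and Eed. Over these 21 genes and 315 refits no direction turned, and 27 refits lost a call, 6 of them without the 7 libraries. The other genes not called were left out of these counts. Among them Rbbp7 (0.14, and -0.04 without the 7 libraries) and Bmi1 (0.04, and -0.11) did turn. The rest with a value in that fit kept their sign. With the replicate number as a replicate block 19 were called and no gene lost its call. Deviations of CORT and VEH libraries with equal numbers correlated at -0.48 to 0.29. Libraries with unequal numbers were not compared, so these values cannot tell whether equal numbers mark pairs. The planned test of RNA at the genes under the sites was not run. With 2 ChIP libraries per group and group means only, no left-out refit of the site levels was made.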
